A study of Mus musculus with 21 samples.

Results

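The genes described here are 8 members of the interleukin-1 (IL-1) axis and the inflammasome, taken by symbol from a deposited table of read counts for 34573 genes in mouse bone-marrow-derived macrophages. They are the ligand genes Il1b, Il1a and Il18, the antagonist gene Il1rn, the sensor gene Nlrp3, the adaptor gene Pycard and the caspase genes Casp1 and Casp4. All 8 were in the table, and 7 of them passed the filter on low counts that left 6812 genes for testing; Il18 did not pass. Bone marrow of 12-week-old C57bl/6 mice was cultured for 6 days with L929-conditioned medium, which supplies the macrophage growth factor M-CSF. Cells then received nothing, succinate or dimethyl malonate (DMM, a cell-permeable ester of malonate, which inhibits succinate dehydrogenase) for 3 h, and after that lipopolysaccharide (LPS, the ligand of Toll-like receptor 4 on Gram-negative bacteria) for 4 or 48 h or no LPS. Doses were not found in the labels. Nor do the labels tell whether the libraries of a group were separate cultures or mice, so each p-value reflects a spread between libraries that may be technical. There were 3 untreated control libraries, 4 with DMM alone and 4 with succinate alone. With LPS for 4 h there were 2 libraries after LPS alone, 2 after DMM and 1 after succinate. With LPS for 48 h there were 2 labelled libraries after LPS alone, of which 1 was kept apart, 2 after DMM and 1 after succinate. The unstimulated libraries carry no time of their own in the count table and form 1 group per treatment.

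IL-1β and IL-1α act on the same receptor, and the IL-1 receptor antagonist encoded by Il1rn occupies that receptor without signalling. IL-1β and IL-18 are made as inactive precursors. A Toll-like receptor signal through NF-κB induces the Il1b precursor and NLRP3, and a further stimulus then lets NLRP3 assemble with the adaptor ASC, encoded by Pycard, and with caspase-1, which cuts both precursors. Caspase-11, encoded by Casp4 in the mouse, binds cytosolic LPS and cuts gasdermin D in the non-canonical pathway. In macrophages given LPS, succinate and its oxidation by succinate dehydrogenase are known for their link to Il1b transcription. Messenger RNA counts do not measure cleavage or secretion of any of these proteins.

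Libraries held 662186 to 1546867 counts. Levels are given as CPM, read counts relative to the library size after trimmed-mean (TMM) scaling, and a gene is called where its adjusted p (edgeR's quasi-likelihood test, Benjamini-Hochberg over all 6812 genes) is under 0.05; only called genes are said to have risen or fallen. All 10 macrophage markers on a fixed list were detected, with a summed level of 58500 to 96500 CPM in the 11 unstimulated libraries and 84200 to 179000 CPM in the 9 stimulated ones. Of 13 neutrophil genes, 8 were detected in stimulated libraries, where their summed level was 72.3 to 5010 CPM against 6.12 to 31.3 CPM in unstimulated ones; Ltf, Ly6g and Retnlg were at 0 in all 20 libraries used. The library labelled LPS 48 h replicate 1 had 1 read of Il1b and 5 of Il1rn, and its Saa3 level was 33.6 CPM against 52970 to 124700 CPM in the other 9 LPS libraries; it looks unstimulated and was left out of the tests, so the LPS 48 h group is 1 library. A group with a single library was taken to vary as the replicated groups did. With that library back in, 20 of 132 member values lost their call, none gained one and no called value changed sign. Fth1, the ferritin heavy chain gene, took 10.5% to 12.4% of counts in the 4 libraries with DMM and LPS and 5.25% to 6.7% in the other 5 stimulated ones, and ribosomal protein genes took 0.493% to 1.11% and 1.41% to 1.61%. The part of these shares in the results on DMM was not tested.

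RefSeq start sites were found for all 8 genes, 12 in all on GRCm38.p6. 5 stretches of 250 bases before a start are shown for the 4 genes whose LPS responses carry the results. Il1b, Il1rn and Nlrp3 were called between pretreatments. Casp4 was called there only in the average of DMM against succinate over both times, and it correlated with Il1rn under LPS. Capitals mark matches, on either strand, to the TATA box, C/EBP, AP-1 and κB motifs, and each sequence is written 5′ to 3′ on the gene's strand. The first is the stretch before Il1b at chr2:129371140-129371389 on the minus strand, with a TATA box (TATAAA) 31 to 26 bases before the start and a C/EBP motif (TTNNGNAA).
Il1b: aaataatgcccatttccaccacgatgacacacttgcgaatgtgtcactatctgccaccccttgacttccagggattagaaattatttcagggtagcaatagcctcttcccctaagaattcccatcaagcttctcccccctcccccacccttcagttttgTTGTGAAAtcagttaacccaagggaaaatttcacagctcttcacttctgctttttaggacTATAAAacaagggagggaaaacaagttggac
Il1rn has 3 RefSeq starts, and the upstream stretch of the first, at chr2:24336610-24336859 on the plus strand, holds an AP-1 motif (TGANTCA).
Il1rn first start: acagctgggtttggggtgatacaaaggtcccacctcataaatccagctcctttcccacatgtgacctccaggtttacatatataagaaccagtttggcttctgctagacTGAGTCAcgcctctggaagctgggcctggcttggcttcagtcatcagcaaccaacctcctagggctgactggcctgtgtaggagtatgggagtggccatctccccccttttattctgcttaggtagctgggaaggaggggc
The stretch before the last of them, at chr2:24345121-24345370 on the plus strand, holds 3 matches to the C/EBP motif, of which the last 2 overlap.
Il1rn last start: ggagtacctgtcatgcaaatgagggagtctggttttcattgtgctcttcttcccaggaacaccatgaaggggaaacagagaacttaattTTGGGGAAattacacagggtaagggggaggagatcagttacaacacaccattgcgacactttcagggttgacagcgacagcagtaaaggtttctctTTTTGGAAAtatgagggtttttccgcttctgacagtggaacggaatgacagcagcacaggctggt
Nlrp3, at chr11:59541319-59541568 on the plus strand, holds 2 C/EBP matches and between them 1 match to the κB consensus bound by NF-κB; a match to the core of the hypoxia response element (ACGTG, in 19.6% of windows), 63 to 59 bases before the start on the other strand, is left in lower case.
Nlrp3: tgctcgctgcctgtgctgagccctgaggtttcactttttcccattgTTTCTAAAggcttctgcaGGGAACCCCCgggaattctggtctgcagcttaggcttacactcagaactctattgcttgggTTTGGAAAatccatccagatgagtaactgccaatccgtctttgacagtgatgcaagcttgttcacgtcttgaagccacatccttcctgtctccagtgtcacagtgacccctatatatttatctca
Casp4, at chr9:5308599-5308848 on the plus strand, holds 1 C/EBP match and 3 κB matches, of which the first 2 overlap.
Casp4: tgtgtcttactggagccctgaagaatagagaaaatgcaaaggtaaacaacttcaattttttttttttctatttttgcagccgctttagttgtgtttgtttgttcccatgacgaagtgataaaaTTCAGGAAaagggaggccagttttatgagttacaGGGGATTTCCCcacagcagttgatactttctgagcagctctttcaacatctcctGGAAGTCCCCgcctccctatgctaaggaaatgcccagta
Of 32851 windows of 300 bases around RefSeq starts, 13.6% held TATAAA, 40.7% the C/EBP motif, 7.81% the AP-1 motif and 8.46% the κB consensus. These matches describe letters and not bound sites. In this search the κB consensus was matched in windows of Nlrp3 and Casp4 and not in the single windows of Il1b and Il1a, and neither the core of the interferon-stimulated response element nor the STAT palindrome (TTCNNNGAA) was matched in any of the 12.

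LPS raised the IL-1 ligand and antagonist genes and the sensor gene, while the adaptor gene Pycard was called in none of the comparisons of this fit. After LPS for 4 h, 5 of the 7 tested members rose (Il1b, Il1a, Il1rn, Nlrp3 and Casp4), beside 15.4% of all tested genes that rose. After LPS for 48 h, 5 of 7 rose, with Casp1 in place of Casp4, beside 12.5%. After DMM and LPS for 4 h the 5 that rose were those of LPS alone, beside 15.9%, and after DMM and LPS for 48 h 6 of 7 rose, all but Pycard, beside 15.2%. These comparisons share the control libraries. With LPS the summed level of 7 B and plasma cell genes was also lower, 0 to 2.13 CPM against 55.6 to 164 CPM without it, with Cd79a and Pax5 at 0 in all, and the neutrophil list was higher, as given above; the part of these in the LPS results was not tested. In bulk samples, fewer cells of a type and less RNA per cell cannot be told apart, which holds for every level below.

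**Figure D1:**
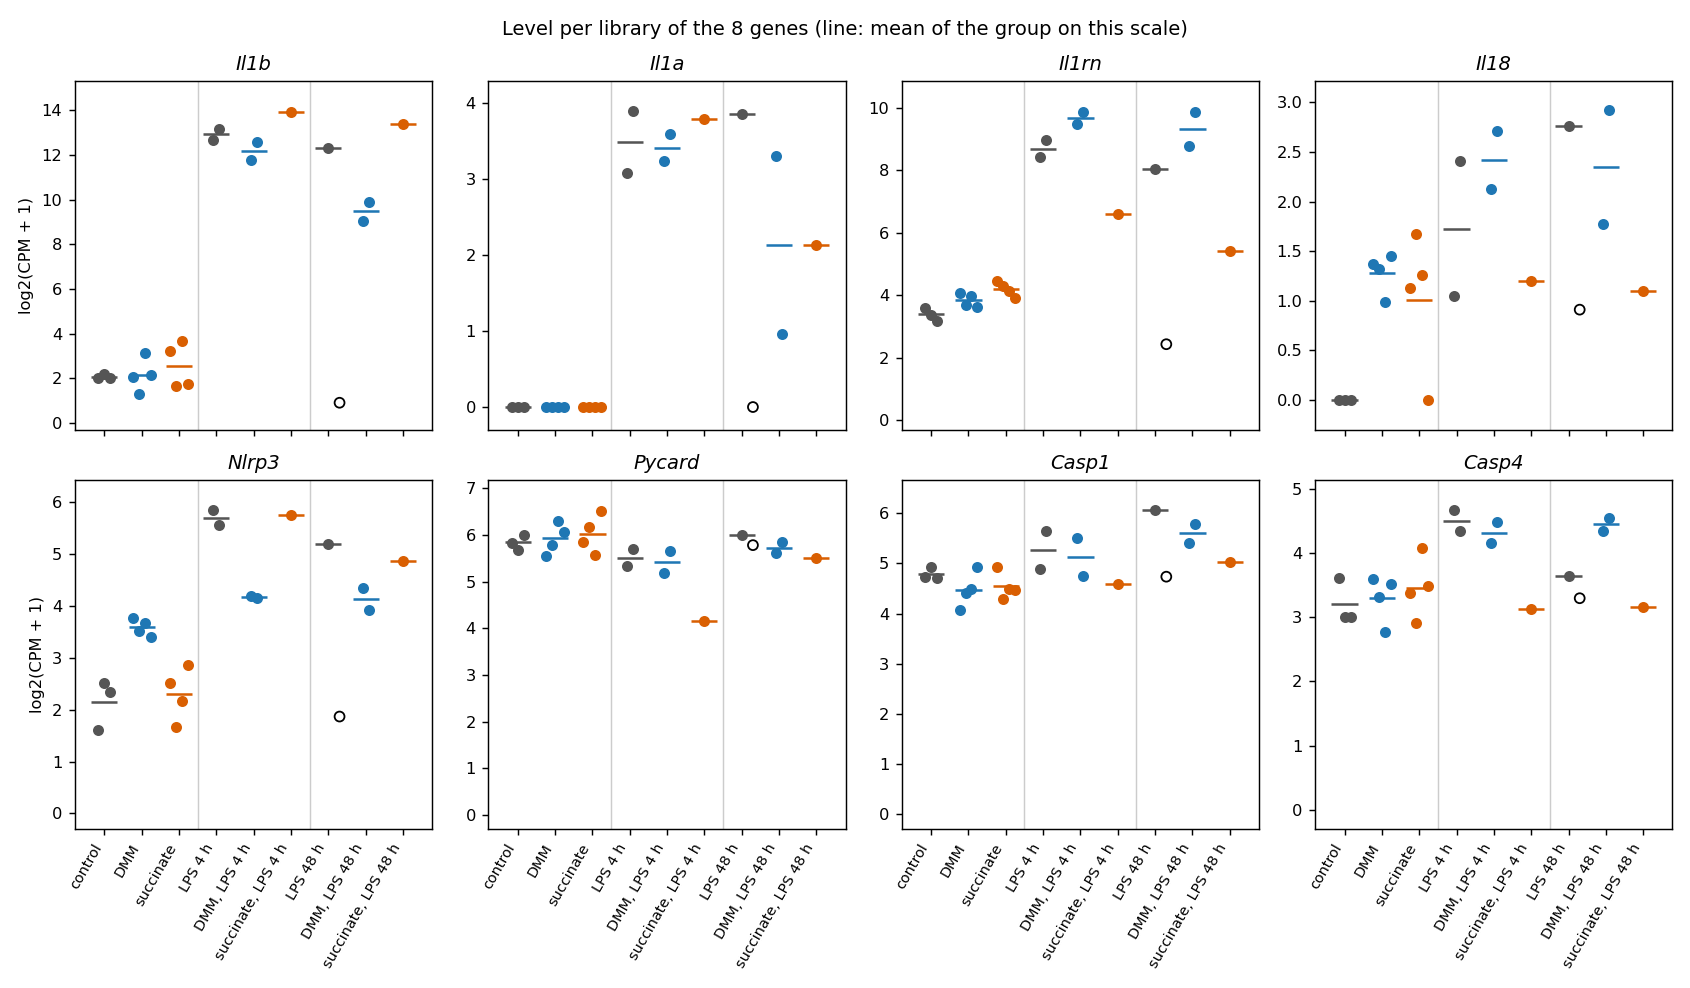
Level of each of the 8 genes in every library, as log2(CPM + 1), by group; each point is 1 library, each line a group mean on this scale, and the open symbol is the library labelled LPS 48 h replicate 1, which was kept apart. Il1b and Il1rn lie above all 11 unstimulated libraries in each of the 9 stimulated ones used, with the smallest gap for Il1rn after succinate and LPS for 48 h (42 CPM against at most 21.2), while Pycard lies between 16.7 and 90.8 CPM in the 20.

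Il1b, which encodes the main secreted ligand of LPS-treated macrophages, had 3 reads in each of the 3 control libraries, 2 to 8 with DMM alone and 2 to 17 with succinate alone. LPS for 4 h brought it to 6529.8 and 9244 CPM, and LPS for 48 h to 4983 CPM. After DMM it reached 3466 and 6029 CPM at 4 h and 531 and 949 CPM at 48 h. After succinate it reached 15392 CPM at 4 h and 10498 CPM at 48 h, above every other library of its time. So at both times the libraries stood in the order DMM, LPS alone, succinate, without overlap between the groups.

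Against control, Il1b rose by a log2 fold change of 11.22 ± 0.68 (SE) at 4 h (2380-fold, adjusted p = 5.34e-15) and of 10.56 ± 0.75 at 48 h (adjusted p = 5.93e-14; 9.63 and 0.00775 with all 21 libraries). DMM before LPS for 48 h left Il1b lower than LPS alone by 2.75 ± 0.55 on the log2 scale, written as a change of -2.75 (6.73-fold lower, adjusted p = 0.00496), against 0.661% of tested genes that fell in that comparison. That comparison has 1 LPS library; with the library kept apart in the fit the change was -1.78 with an adjusted p of 0.654. At 4 h the change was -0.73 ± 0.45 and was not called (adjusted p = 0.294; 95% interval -1.65 to 0.19). Over both times, DMM lowered Il1b by a mean log2 change of -1.74 ± 0.36 (3.35-fold, adjusted p = 0.000722), and with all 21 libraries this was -1.25 with an adjusted p of 0.488. The higher Il1b after succinate was not called: 0.96 ± 0.55 at 4 h (adjusted p = 0.713) and 1.07 ± 0.64 at 48 h (adjusted p = 0.886), each from 1 succinate library.

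In the sample labels, replicates with LPS are lettered at 4 h and numbered at 48 h. Time and sample set can therefore not be told apart in the comparisons of 48 h with 4 h. Within the DMM libraries, Il1b fell from 4 h to 48 h of LPS by a log2 change of -2.68 ± 0.45 (6.42-fold, adjusted p = 0.00194), where 0.338% of tested genes fell. Without DMM the change from 4 h to 48 h was -0.66 ± 0.55 (adjusted p = 1), and no member was called in that comparison, where 0.0147% of genes were. The difference between these changes, the interaction of DMM with time, was -2.02 ± 0.71 and was not called (adjusted p = 0.836), and 0% of genes were called there (357 at an unadjusted p under 0.05, and 1 by DESeq2). The fall over time within DMM also lost its call without the second DMM and LPS 4 h library (-2.23, adjusted p = 0.0609) and with all 21 libraries (adjusted p = 0.702).

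Il1a, the gene of the other ligand of the receptor, had 0 reads in all 11 unstimulated libraries. Its counts under LPS were low, from 1 to 15 reads a library. LPS alone gave 7.47 and 13.98 CPM at 4 h and 13.51 CPM at 48 h, DMM and LPS gave 8.43 and 11.14 CPM at 4 h and 8.91 and 0.939 CPM at 48 h, and succinate and LPS gave 12.87 and 3.41 CPM. Set against a floor of 3 reads over the control group, Il1a was at least 10.1-fold higher after LPS for 4 h (adjusted p = 0.000912) and at least 12.7-fold higher after LPS for 48 h (adjusted p = 0.00144). No comparison between pretreatments called Il1a in the fit of 9 groups, while with 12 groups and a replicate block its mean change with DMM was called (-1.76, adjusted p = 0.0499). Its values in the DMM and LPS-alone groups overlapped at 4 h. Reads of Il1b and Il1a may include those of Il1bos and Gm14023, which share exonic sequence with them, because counting by strand is not stated.

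Il1rn was lower in the 2 libraries with succinate before LPS and, over both times, rose with DMM before LPS, the pretreatment that lowered Il1b. Its levels were 8.07 to 11.2 CPM in controls, 11.3 to 15.8 with DMM alone and 14.1 to 21.2 with succinate alone. LPS alone brought it to 341.3 and 502.4 CPM at 4 h and 263.5 CPM at 48 h, and DMM before LPS to 719.4 and 929.4 CPM at 4 h and 436.6 and 935.7 CPM at 48 h. After succinate and LPS it stood at 95.2 CPM at 4 h and 42 CPM at 48 h, above the controls and below every other stimulated library. The succinate values rest on 74 and 37 reads.

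LPS alone raised Il1rn by 5.45 ± 0.38 at 4 h (43.6-fold, adjusted p = 4.11e-13) and by 4.77 ± 0.45 at 48 h (adjusted p = 8.8e-11). With succinate before LPS it was lower than with LPS alone by a log2 change of -2.15 ± 0.42 at 4 h (4.42-fold lower, adjusted p = 0.0114) and of -2.64 ± 0.50 at 48 h (6.25-fold lower, adjusted p = 0.00905). It was the only one of the 7 tested members called in either succinate comparison, in which 0.499% and 0.22% of tested genes fell. Averaged over both times the change was -2.39 ± 0.33 (adjusted p = 4.53e-05), in a comparison added after the values were seen in which 0.998% of genes fell. The call at 4 h was lost without the second LPS 4 h library (-1.84, adjusted p = 0.12), and all 3 were lost with all 21 libraries (-2.13 at 4 h, -1.69 at 48 h and -1.91 on average, adjusted p = 0.957, 0.678 and 0.469). Succinate and LPS is a single library at each time, and at 48 h so is LPS alone, so the spread behind these tests comes from the other groups. DMM before LPS raised Il1rn by 0.97 ± 0.32 at 4 h (1.95-fold, adjusted p = 0.0447), where 3.54% of genes rose, a call lost on leaving out any 1 of the 4 libraries (0.72 to 1.27, adjusted p = 0.0682 to 0.337) and with all 21 libraries (0.98, adjusted p = 0.523). At 48 h the change of 1.38 ± 0.40 was not called (adjusted p = 0.123), except without the first DMM library (1.80, adjusted p = 0.0149), and over both times it was 1.17 ± 0.26 (2.25-fold, adjusted p = 0.00254; 1.66 and 0.1 with all 21 libraries).

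The balance of agonist and antagonist transcripts was followed as the ratio of Il1b to Il1rn reads within each library, which does not depend on library scaling. With LPS alone the ratio was 19.1 and 18.4 at 4 h and 18.9 at 48 h. After DMM it was 4.82 and 6.49 at 4 h and 1.22 and 1.01 at 48 h, and after succinate 162 at 4 h and 250.0 at 48 h. All 4 libraries with DMM lay below all 5 without it. In controls the ratio was 0.273 to 0.375, on 3 reads of Il1b, and in the library kept apart it was 0.2. The union of all annotated exons in GENCODE M21 is 5535 bases for Il1rn and 1907 for Il1b. By these lengths, which can exceed those of the transcripts expressed, Il1b exceeded Il1rn per base in all 9 stimulated libraries. The log2 ratio per base was 1.56 and 1.82 in the DMM libraries at 48 h and 9.5 in the succinate library at 48 h.

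The log2 ratio of reads, with 2 added to each count, was 1.32 ± 1.36 (SD, n = 4) with DMM and 5.57 ± 1.86 (SD, n = 5) without it. The arm without DMM holds 3 libraries with LPS alone and 2 with succinate, which lay higher. Both arms pool 4 h and 48 h, so these SDs span times and, without DMM, treatments. The difference between the arms with time as a stratum was -4.34 (two-sided exact permutation test, p = 0.0167, the smallest of the 60 arrangements). Without either DMM library of 4 h the exact p was 0.0833, and without any 1 library of LPS alone or succinate at 4 h it was 0.0556. Against the 3 libraries with LPS alone the difference was -2.91 (exact p = 0.0556, the smallest that 18 arrangements allow).

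**Figure D2:**
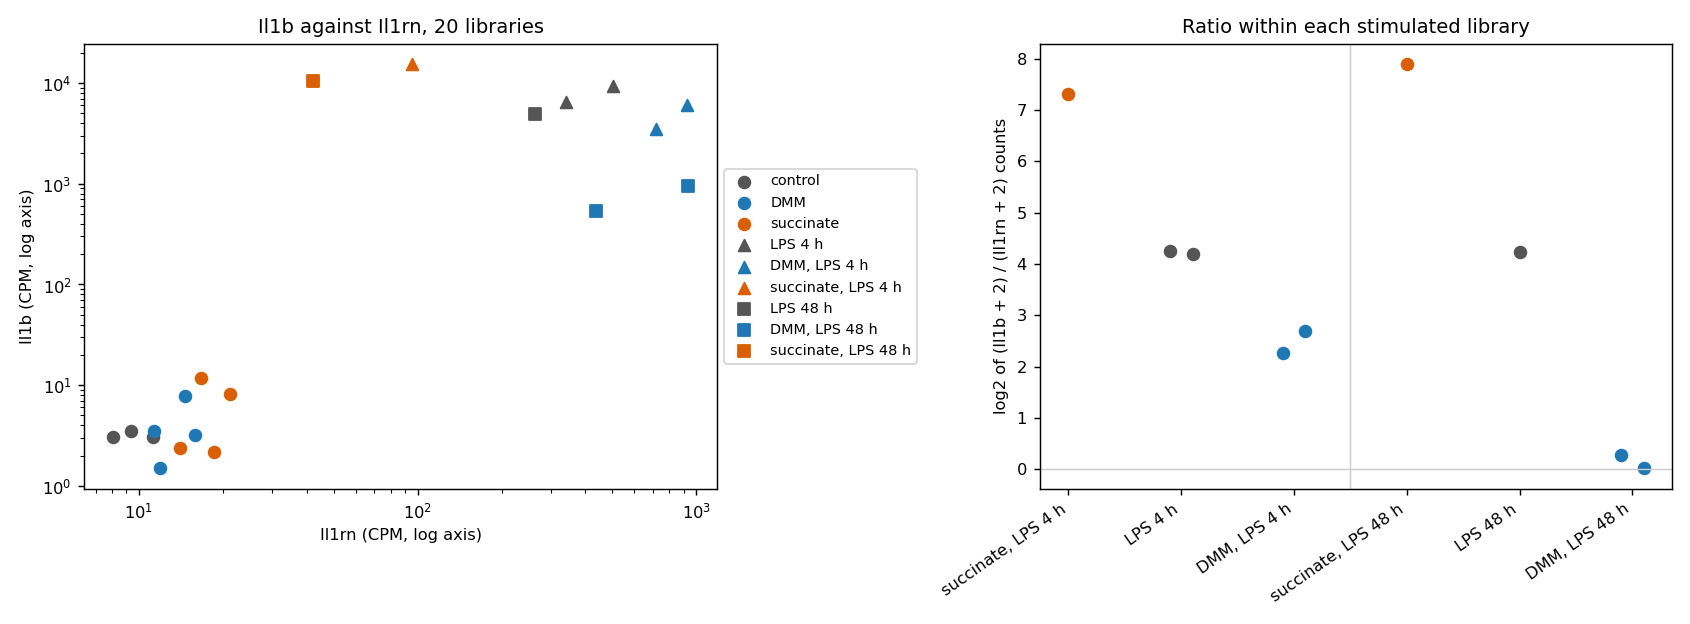
Il1b against Il1rn in each library, in CPM on log axes for 20 libraries, and the log2 ratio of their reads (2 added to each) in the 9 stimulated libraries by group; each point is 1 library. The 3 libraries with LPS alone share a log2 ratio of 4.2 to 4.25, the 4 with DMM lie lower at 0.02 to 2.7, and the 2 with succinate lie higher at 7.3 and 7.89.

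Neutrophil-list genes also differed between these groups. The list's summed level was 5010 and 1700 CPM after succinate and LPS at 4 and 48 h, 282 to 308 and 190 CPM after LPS alone, and 320 to 440 and 72.3 to 90.7 CPM after DMM and LPS. So the list was highest with succinate at both times, and with DMM it was above LPS alone at 4 h and below it at 48 h. Most of the succinate level was Mmp9, the gene of a secreted gelatinase, at 3840 and 1340 CPM, against 110 to 155 CPM with LPS alone and 7.52 to 26 CPM with DMM. Mmp8, a collagenase gene, was at 586 and 266 CPM with succinate, 24.1 to 39.8 CPM with LPS alone and 24.4 to 70.6 CPM with DMM. S100a8, the gene of a calcium-binding protein, was at 0 without LPS and at 4 h reached 41.6 and 66.7 CPM with LPS alone, 200 and 320 CPM with DMM and 560 CPM with succinate. S100a9, the gene of its partner, stayed at or below 1.29 CPM. Csf3r, another gene on the list, went the other way under LPS and was lowest with succinate, at 15.4 and 11.4 CPM. With LPS alone Csf3r was at 46.3 to 60.2 CPM, and with DMM at 22.3 to 36.4 CPM. Cxcr2 was at or below 6.4 CPM in every library with LPS. Summed macrophage markers were 176000 to 179000 CPM in the 2 libraries with succinate and LPS. The summed fibroblast and stromal list was low but differed as well. At 4 h it was 34.4 to 41 CPM with DMM, 6.45 to 18.1 CPM with LPS alone and 3.86 CPM with succinate. At 48 h the levels were 16.9 to 21.9, 9.65 and 6.82 CPM in that order. The part of these genes in the Il1b and Il1rn results was not tested.

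Among the receptors, decoys and binding proteins of the family, 9 genes were listed and 1, Il18bp, passed the filter; it encodes the soluble binding protein that neutralises IL-18. Its level was 11.7 and 14 CPM after LPS for 4 h, 35.3 and 40.5 CPM after DMM and LPS, and 6.44 CPM after succinate and LPS. At 48 h it was 13.5 CPM with LPS alone, 41.3 and 47.8 CPM with DMM and 3.41 CPM with succinate. So it stood in the order of Il1rn, which has the matching role for IL-1. Il18bp rose with LPS for 4 h (3.46 ± 0.86, adjusted p = 0.000139) and rose further with DMM before it (1.56 ± 0.41, adjusted p = 0.00706). At 48 h its change with DMM, 1.72, was not called. Over both times the change of Il18bp with DMM was 1.64 ± 0.33 (adjusted p = 0.000469), and DMM libraries exceeded succinate libraries by 3.10 ± 0.55 (adjusted p = 1.25e-05). Each time rests on 1 library with succinate, and the alternative fits were followed for the members and not for Il18bp.

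The change of Nlrp3, the gene of the sensor, with DMM differed between libraries with and without LPS. Its levels were 2.04, 4.69 and 4.04 CPM in controls, 9.57 to 12.7 CPM in the 4 libraries with DMM alone and 2.18 to 6.26 CPM in the 4 with succinate alone. LPS for 4 h gave 56.5 and 46.3 CPM alone, 17.4 and 16.7 CPM after DMM and 52.8 CPM after succinate. At 48 h the levels were 35.7 CPM with LPS alone, 19.4 and 14.1 CPM with DMM and 28.4 CPM with succinate. Every DMM library was thus above every control without LPS, and below every library without DMM under LPS.

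LPS raised Nlrp3 by 3.81 ± 0.46 at 4 h (14.1-fold, adjusted p = 1.74e-09) and 3.29 ± 0.51 at 48 h (adjusted p = 1.68e-06). DMM before LPS for 4 h lowered it relative to LPS alone by a log2 change of -1.58 ± 0.32 (2.99-fold lower, adjusted p = 0.000816), where 10.5% of tested genes fell, and in all 4 fits with 1 of the libraries left out it was called (-1.71 to -1.43); with all 21 libraries the adjusted p was 0.0716. At 48 h the change was -1.08 ± 0.40 and was not called (adjusted p = 0.217), and over both times it was -1.33 ± 0.26 (2.51-fold lower, adjusted p = 0.000381; -0.87 and 0.163 with all 21 libraries). In this average 2 members fell, Il1b and Nlrp3, beside 11.9% of genes, and Il1rn rose, beside 5.43%. Succinate before LPS gave 0.04 ± 0.37 for Nlrp3 at 4 h (95% interval -0.71 to 0.78) and -0.33 ± 0.46 at 48 h, neither called.

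DMM alone called none of the 7 members, and 0.558% of all genes were called there. Nlrp3 had the smallest p of the 7, with a change of 1.59 ± 0.46 (3.01-fold, unadjusted p = 0.00074, adjusted p = 0.072). The interaction of DMM with LPS at 4 h, the change with DMM under LPS less that without LPS, was -3.17 ± 0.56 for Nlrp3 (adjusted p = 0.000379; -3.18 and 0.0539 with all 21 libraries). It was the only member called there, where 4.49% of genes had a lower change under LPS. For Il1b the interaction was -1.01 ± 0.89 and for Il1rn 0.51 ± 0.51, and neither was called. Succinate alone called no gene at all (0% of 6812 by edgeR, 363 genes at an unadjusted p under 0.05, and 2 by DESeq2); its values were 0.96 ± 0.71 for Il1b and 0.86 ± 0.38 for Il1rn (adjusted p = 0.952 and 0.897), though all 4 succinate libraries stood above all 3 controls for Il1rn. Between DMM alone and succinate alone, 0.22% of genes and none of the 7 members were called, with Nlrp3 at 1.34 ± 0.38 (adjusted p = 0.123).

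Pycard, the gene of the adaptor ASC, was present in every library. Its levels were 50.4 to 62.5 CPM in controls, 45.9 to 77.1 with DMM alone and 46.5 to 90.8 with succinate alone. LPS alone gave 39.5 and 50.6 CPM at 4 h and 62.7 CPM at 48 h, and DMM and LPS gave 35.4 and 49.2 CPM at 4 h and 47.8 and 56.4 CPM at 48 h. The succinate and LPS library at 4 h had 16.7 CPM, on 13 reads, the lowest of the 20. Against LPS alone its change was -1.42 ± 0.50 and was not called (adjusted p = 0.27), and at 48 h, with 44.3 CPM, it was -0.50 ± 0.45. In the fit with 12 groups and a replicate block, Pycard was called higher with DMM than with succinate at LPS 4 h (1.42, adjusted p = 0.0232) and over both times (0.75, adjusted p = 0.0494). Pycard shares exonic sequence with Gm45205.

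Casp1, whose product is the protease of the canonical inflammasome, stood at 25.2 to 29.3 CPM in controls, 15.8 to 29.6 with DMM alone and 18.6 to 29.4 with succinate alone. After 48 h of LPS it reached 65.6 CPM alone, 41.3 and 54.5 CPM with DMM and 31.8 CPM with succinate. It rose by 1.30 ± 0.37 with LPS for 48 h (2.46-fold, adjusted p = 0.0076) and by 0.84 ± 0.30 with DMM and LPS for 48 h (adjusted p = 0.033). Both calls were lost with all 21 libraries (0.82 and 0.89, adjusted p = 0.217 and 0.0783), and the second also without either of 2 controls (adjusted p = 0.0655 and 0.0591) or without the second DMM and LPS 48 h library (0.68, adjusted p = 0.185), by DESeq2 (adjusted p = 0.106), without a filter (adjusted p = 0.0621) and with 12 groups (adjusted p = 0.103). At 4 h the levels were 28.8 and 49.5 CPM with LPS alone, 44.4 and 26 CPM with DMM and 23.2 CPM with succinate. They overlapped the controls, and LPS alone gave 0.55 ± 0.32 (adjusted p = 0.207).

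Casp4, the gene of the mouse LPS-binding caspase-11, stood at 7.04 to 11.2 CPM in controls, 5.85 to 11.1 with DMM alone and 6.55 to 16 with succinate alone. With LPS for 4 h it reached 24.5 and 19.4 CPM alone and 16.9 and 21.4 CPM after DMM, while the succinate library had 7.72 CPM, within the range of the controls. At 48 h it was 11.6 CPM with LPS alone, 19.4 and 22.5 CPM with DMM and 7.96 CPM with succinate. It rose with LPS for 4 h (1.36 ± 0.41, 2.57-fold, adjusted p = 0.00971), a call lost without the first LPS 4 h library (1.17, adjusted p = 0.11). It rose with DMM and LPS at 4 h (1.14 ± 0.40, adjusted p = 0.0227) and at 48 h (1.29 ± 0.40, adjusted p = 0.0119), while LPS alone at 48 h gave 0.44 ± 0.55 (adjusted p = 0.624). Without the second DMM library of each time the changes with DMM and LPS were 0.98 (adjusted p = 0.12) and 1.23 (adjusted p = 0.0576). The succinate library at 4 h differed from LPS alone by -1.49 ± 0.65, on 6 reads, and was not called (adjusted p = 0.466).

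Il18 had at most 7 reads in any library and took no part in the main test. It had 0 reads in the 3 controls, 1 or 2 in each DMM library and 0 to 2 in each succinate library. With LPS it had 1 and 4 reads at 4 h and 6 at 48 h, with DMM and LPS 6 and 6 at 4 h and 3 and 7 at 48 h, and with succinate and LPS 1 at each time. Against a floor of 3 reads over the controls it was at least 3.95-fold higher with DMM and LPS at 4 h, at least 4.09-fold higher with both at 48 h and at least 5.45-fold higher with LPS alone at 48 h. In the fit without a filter on low counts these 3 were called (adjusted p = 0.00572, 0.00807 and 0.0112), and LPS alone at 4 h was not (adjusted p = 0.0722). In that fit no comparison between pretreatments called Il18. Against LPS alone the log2 changes at 4 and 48 h were 0.64 and -0.46 with DMM and -0.99 and -2.27 with succinate. On so few reads a difference could have been missed.

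Levels per length, in CPM per kilobase of exon, order the genes within a group. The length used is the union of all annotated exons, 3800 bases for Pycard and 1497 for Casp1. It can exceed the length of the transcript expressed, so the order depends on the annotation and is a rough one. In controls Casp1 stood at 17.8 ± 1.53 and Pycard at 14.8 ± 1.59 (SD, n = 3), followed by Casp4 at 2.28 ± 0.65, Il1rn at 1.73 ± 0.286, Il1b at 1.68 ± 0.144 and Nlrp3 at 0.885 ± 0.34. Casp4, Il1rn and Il1b did not differ beyond their spread. After LPS for 4 h Il1b led at 4140 ± 1010 (SD, n = 2), with Il1rn at 76.2 ± 20.6, Casp1 at 26.1 ± 9.77, Nlrp3 at 12.7 ± 1.79, Pycard at 11.8 ± 2.07, Casp4 at 5.92 ± 0.984, Il1a at 5.43 ± 2.34 and Il18 at 2.6 ± 2.22. Nlrp3 and Pycard, Casp4 and Il1a, and Il1a and Il18 did not differ beyond their spread.

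DMM and succinate were also compared with each other, both before LPS. At 4 h, Il1b was lower with DMM by a log2 change of -1.70 ± 0.55 (adjusted p = 0.045), Nlrp3 by -1.62 ± 0.39 (adjusted p = 0.0062), and Il1rn was higher by 3.11 ± 0.42 (8.64-fold, adjusted p = 7.75e-05). So 3 of 7 members were called where 7.57% of genes were. At 48 h, Il1b was lower by a change of -3.83 ± 0.55 (14.2-fold, adjusted p = 2.95e-05) and Il1rn higher by 4.02 ± 0.45 (16.3-fold, adjusted p = 6.65e-06), 2 of 7 members beside 3.86% of genes. Averaged over both times, a comparison added after the values were seen, Il1b changed by -2.76 ± 0.39, Nlrp3 by -1.18 ± 0.29, Il1rn by 3.57 ± 0.31 and Casp4 by 1.33 ± 0.45. All 4 were called (adjusted p = 4.12e-06, 0.0039, 1.78e-08 and 0.0259), where 17.3% of genes were. Each time rests on 1 succinate library. At 4 h the Il1b call was lost without either DMM library (-1.35 and -2.15, adjusted p = 0.326 and 0.057) and that of Nlrp3 without the first (adjusted p = 0.0658), and the average of Casp4 without the second (1.24, adjusted p = 0.0552), by DESeq2 (adjusted p = 0.0878) and without a filter (adjusted p = 0.0791). With all 21 libraries no member was called at either time alone, while the Il1rn and Casp4 averages were called (adjusted p = 0.0195 and 0.0428) and those of Il1b and Nlrp3 were not (0.161 and 0.107).

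**Figure D3:**
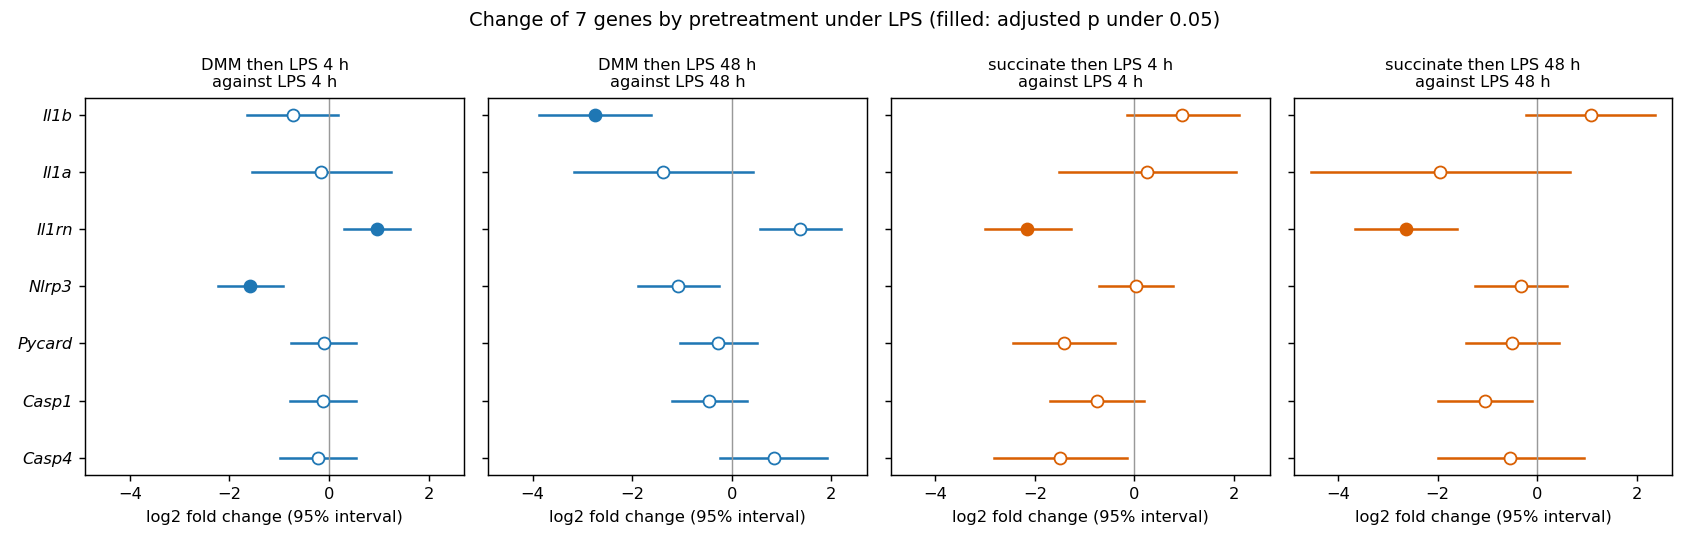
Log2 fold change of each tested member for DMM and for succinate before LPS against LPS alone, at 4 h and 48 h, with 95% intervals; in each panel the x axis is the log2 change, and filled points are called at an adjusted p under 0.05. Il1rn lies above 0 with DMM (0.97 and 1.38) and below 0 with succinate (-2.15 and -2.64), and Il1b lies the other way.

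The wider pathway was followed in lists of 106 further genes, of which 67 passed the filter. LPS for 4 h called 52.2% of the 67, 33 higher and 2 lower, beside 27.9% of all tested genes. NF-κB subunits and inhibitors gave 9 of 10 higher, with Nfkbia, the inhibitor of NF-κB, up by 4.60 ± 0.38 (adjusted p = 8.87e-11) and Tnfaip3, which encodes the deubiquitinase A20, up by 3.40 ± 0.47 (adjusted p = 6.31e-08). Other inflammasome sensors and adaptors gave 7 of 9 higher, among them Ifi204 from 13.3 to 29.3 CPM in controls to 173 and 209 CPM (3.32 ± 0.35, adjusted p = 2.25e-09) and Nod1 (3.46 ± 0.40, adjusted p = 3.97e-09). In signalling from the IL-1 and Toll-like receptors 4 of 13 rose, led by Irak3, an inhibitory kinase-like protein of the pathway, at 5.31 ± 0.40 (adjusted p = 1.67e-12). Of 13 genes of pyroptosis and other cell death, 5 rose and 1 fell, and Gsdmd, the gene of the pore-forming protein that inflammasome caspases cut, rose by 1.52 ± 0.26 (adjusted p = 2.75e-05). Of 12 regulators of NLRP3 activation 2 rose and 1 fell: P2rx7, the gene of the ATP-gated channel used to trigger NLRP3, changed by -1.93 ± 0.59 (adjusted p = 0.00627). Calls in either direction were 25% of these 12 and 30.8% of the 13 signalling genes, both near the 27.9% of all tested genes.

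DMM before LPS for 4 h called 10 of the 67, 3 higher and 7 lower, or 14.9% beside 14% of all genes, a share near the background. At 48 h it called 0 of the 67, beside 0.807% of all genes (932 of them at an unadjusted p under 0.05). The higher genes at 4 h were Il18bp, Il1f9, an IL-36 ligand gene (2.81 ± 0.89, adjusted p = 0.01), and Panx1, the gene of a membrane channel (2.63 ± 0.81, adjusted p = 0.00781). The last 2 rest on few reads with LPS alone. Il1f9 went from 2.13 and 2.15 CPM to 13 and 18 CPM, and Panx1 from 0 and 4.3 CPM to 12.4 and 15.8 CPM. Among the lower, Gsdmd went from 169 and 197 CPM to 77.6 and 101 CPM (-1.04 ± 0.28, adjusted p = 0.0117) and Irak3 from 440 and 460 CPM to 171 and 181 CPM (-1.36 ± 0.35, adjusted p = 0.00803). Irgm1 (-1.52 ± 0.30, adjusted p = 0.000964) and Ifi47 (-1.41 ± 0.35, adjusted p = 0.00671), interferon-inducible GTPase genes, fell as well, as did Ifi204 (-1.55 ± 0.33, adjusted p = 0.00192), Irak1 (-1.48 ± 0.44, adjusted p = 0.0197) and Cflar (-0.89 ± 0.27, adjusted p = 0.025). Succinate before LPS called 1 of the 67 at 4 h, Ifi204, beside 1.03% of all genes, and 0 at 48 h, beside 0.558%. Averaged over both times it called 6, or 8.96%, beside 2.1% of all genes, 2 higher and 4 lower, among them Ifi204 (-1.57 ± 0.32, adjusted p = 0.00436) and Ifi47 (-1.96 ± 0.36, adjusted p = 0.00113). Il1f9 was among the 2 higher, with a mean log2 change of 3.09, so its rise was not particular to DMM. Genes of the Ifi200 and GTPase families have close copies, so their counts are uncertain. DMM and succinate alone called none of the 67.

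**Figure D4:**
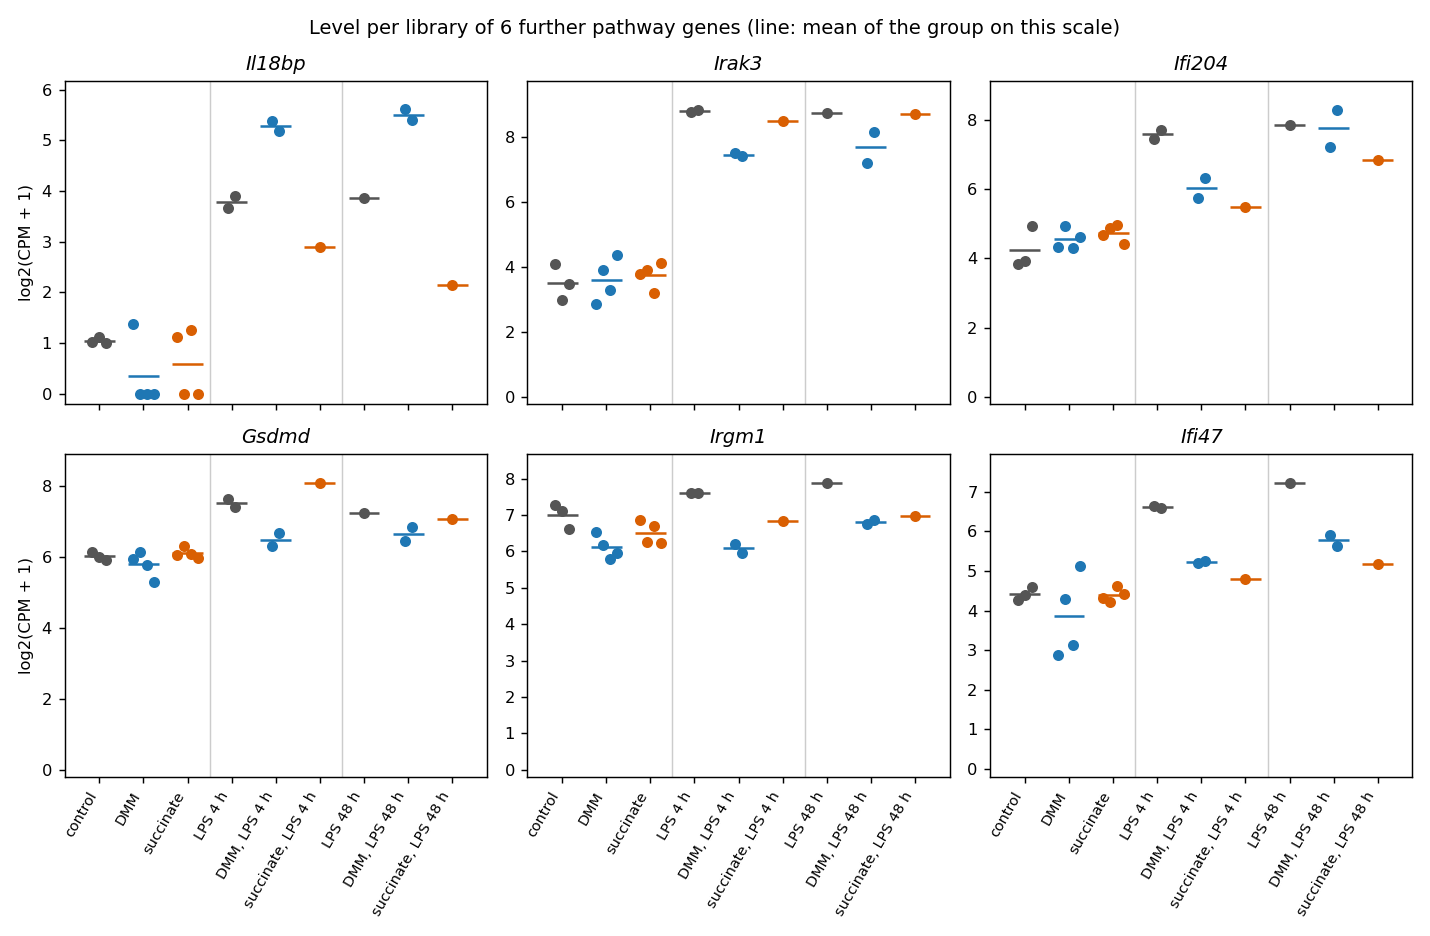
Levels of 6 pathway genes as log2(CPM + 1) in the groups with and without LPS; each point is 1 library and each line a group mean on this scale. Il18bp is higher with DMM and LPS (35.3 to 47.8 CPM) than with LPS alone (11.7 to 14 CPM) and lower with succinate and LPS (3.41 and 6.44 CPM), while Gsdmd and Irak3 are lower with DMM and LPS at 4 h than with LPS alone.

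Genes of like pattern were sought by Pearson correlation of log2 CPM over the 20 libraries, given as descriptions since the libraries share LPS treatment and depth. Nearest to Il1b were Slpi (0.988), Tnf (0.987) and Ier3 (0.987). Nearest to Il1rn were Il18bp (0.962), Dtx2 (0.956) and Ccl2 (0.953), and nearest to Nlrp3 were Smpdl3b (0.95), Slc7a2 (0.925) and Psmd11 (0.924). Casp1 was nearest to Samd9l (0.858), Stat2 (0.854) and Ifit1 (0.851), Casp4 to Parp10 (0.822) and Pycard to Ly86 (0.873). Il1b and Il1rn correlated at 0.85 over the 20 libraries and at -0.54 over the 9 stimulated ones. In those 9, Il1rn and Casp4 correlated at 0.87, Il1b and Nlrp3 at 0.68 and Casp1 and Pycard at 0.69.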

How the data were processed

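Full-length cDNA libraries of mouse macrophages were made by a SmartSeq2 variant, per the labels' protocols, and no molecular identifiers are named there. The authors deposited whole-number read counts per gene symbol for 34573 genes. TopHat2, Bowtie, HTSeq and edgeR are listed as tools, per the submitters' processing notes. For versions, build and use of strand nothing is stated in the labels or file headers.

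The 8 genes, the lists and the comparisons were chosen with earlier results of these data known. Counts were fitted over 20 libraries in 9 groups with edgeR 4.0.16 in R 4.3.3 (quasi-likelihood, robust, TMM), with Benjamini-Hochberg adjustment over 6812 genes and a threshold of 0.05. Residual degrees of freedom were 11, and the common biological coefficient of variation was 0.23. The filter asked for 2 libraries above 9.64 CPM, which is 10 reads at the median depth, and for 15 reads in total. The test was checked on simulated counts. The library labelled LPS 48 h replicate 1 was kept apart because it lacks the LPS response. 18 comparisons were planned and 2 were added after seeing the data. Depth was 662186 to 1546867 counts a library. Intervals of fold changes follow the standard errors of the fit, which include spread between libraries of replicated groups. Floors (3 counts) cover counting error only.

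Members were always named. From each other list, up to 4 called genes with the smallest p per comparison could be named; the text gives only some. The 3 genes most correlated with a member (at least 10 CPM on average) could be named as alike. Alternatives were RLE scaling, DESeq2 1.42.0, no filter, 12 groups by inferred set, a replicate block, all 21 libraries, leaving out satellite-like symbols and leaving out each library. Gene lengths, as unions of all annotated exons, came from GENCODE M21 and start sequences from RefSeq (GRCm38.p6).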

Additional observations from a re-analysis of the deposited data

Results flagged for a closer look

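4 genes, a member and 3 of the wider lists, had a change with DMM that differed between libraries with and without LPS at 4 h, by edgeR's interaction term with adjustment over all 6812 genes. The 3 were 4.48% of the 67 list genes tested, all lower, beside 4.49% of all tested genes that were lower. That share is at the background, so it does not set these lists apart. The interaction was -3.17 for Nlrp3 (adjusted p = 0.000379), -2.15 for Nfkb2, an NF-κB subunit gene (adjusted p = 0.0141), -1.83 for Ifi204 (adjusted p = 0.0161) and -1.38 for Cflar, the gene of a caspase-8 inhibitor (adjusted p = 0.0237). In 14 tests of groups of 4 libraries for 1 library far from the others, none stood out. These groups were DMM alone and succinate alone. The control and LPS groups were too small for this test, so it does not cover them.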

How the results depend on the processing

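Over all alternatives the members gave 1496 values, of which 1440 stayed on their side of the threshold, 49 lost a call, 7 gained one and none that was called changed sign. RLE scaling and leaving out satellite-like symbols changed no member's call. Under DESeq2 the higher Il1rn with DMM and LPS at 4 h was not called (0.98, adjusted p = 0.0636), nor was it without a filter (0.94, adjusted p = 0.0775). The cause of these changes was not tested. At this depth Il1a, Il18, Casp4 and unstimulated Il1b rest on few reads, and each of the 6 groups with LPS holds 2 libraries or 1.

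The numbers of genes called moved by over 1.5 times in these fits. By DESeq2 they were 1 for DMM by time, 124 for DMM and LPS 48 h against 4 h, 109 for DMM at LPS 48 h, 4 for LPS 48 h against 4 h and 2 for succinate alone. Without a filter they were, in the same order, 6, 145, 107, 11 and 6, with 121 for DMM alone, 65 for DMM against succinate alone and 72 for succinate at LPS 48 h. With all 21 libraries they were 689 and 648 for DMM against succinate and DMM against none over both times, 97 for DMM by LPS, 456 for DMM at LPS 4 h, 217 and 61 for DMM against succinate at LPS 4 and 48 h, and 10 for DMM and LPS 48 h against 4 h. They were also 0 for DMM alone, 1 for DMM against succinate alone, 19 for LPS 48 h against 4 h, 502 for LPS 48 h, and 39, 8 and 6 for succinate under LPS over both times, at 4 h and at 48 h. With the LPS libraries of both times as 1 arm, 511 were called for DMM at LPS 48 h, and Nlrp3 was among them (-1.44, adjusted p = 0.0034).

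With 12 groups by inferred set the numbers were 1 for DMM by time, 217 for DMM and LPS 48 h against 4 h, 171 for DMM at LPS 48 h, 460 for DMM against succinate at LPS 48 h, 94 for DMM alone, 69 for DMM against succinate alone and 17 for LPS 48 h against 4 h. For succinate they were 232, 131 and 99 under LPS over both times, at 4 h and at 48 h, and 2 alone. With a replicate block added they were 60, 132, 180, 811, 140, 151, 27, 224, 143, 94 and 9 in that order, and 675 for DMM by LPS, 1465 for DMM at LPS 4 h and 810 for DMM against succinate at LPS 4 h. The block called 5 further member values, among them Il1rn with DMM at LPS 48 h (1.57, adjusted p = 0.00868), and lost 1. The labels do not say whether same-numbered samples shared more than a number. Deviations of groups correlated at -0.05 to 0.13 in the 4 h set (10 pairs of groups) and -0.01 to 0.26 in the 48 h set (3 pairs). These few pairs, with unstimulated samples placed by inferred set, cannot decide it. The difference made by DMM in the log2 ratio of Il1b to Il1rn was -2.91 against LPS alone (exact permutation p = 0.0556). With the replicate block it was -2.56 (exact p = 0.25), and each p is the smallest its design allows.

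Leaving out 1 library at a time gave differences in the log2 ratio of Il1b to Il1rn, with against without DMM, of -5.25 to -3.42. The exact permutation p was 0.0333 to 0.0833. Counts then ran from 777 to 1359 for DMM against succinate over both times, 734 to 1438 for DMM over both times, 84 to 421 for DMM by LPS, 0 to 25 for DMM by time, 279 to 614 for DMM at LPS 4 h, 1449 to 2018 for DMM and LPS 4 h against control, and 144 to 351 for DMM against succinate at LPS 4 h. In each of these but DMM by time the lowest was without the first DMM and LPS 4 h library. They ran from 13 to 297 for DMM and LPS 48 h against 4 h (lowest without that library too), 35 to 337 for DMM at LPS 48 h and 125 to 611 for DMM against succinate at LPS 48 h (both lowest without the first DMM and LPS 48 h library), 4 to 136 for DMM alone (lowest without the first control), 2 to 23 for DMM against succinate alone, 22 to 36 for succinate at LPS 4 h and 0 to 1 for succinate alone. Casp4 against control with DMM and LPS was not called without 1 or the other of 2 controls or the second DMM library at 4 h (0.98 to 1.06, adjusted p = 0.0676 to 0.12), nor by DESeq2 (adjusted p = 0.0848).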
